A study of Arabidopsis thaliana with 12 samples.

Results

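The array measured 4 genes for photosystem II assembly and repair factors, called members here, with probes annotated to a single gene. They were PSB27 (AT1G03600), LPA19 (AT1G05385), AT5G46390, a protein like the peptidase that trims the end of the D1 protein, and AT1G54500, a rubredoxin. They were chosen by locus, without use of their signals in the rule, from 689 loci with a probe of their own among 3439 probes. Each member had 1 such probe, and none was listed at 0 in any sample. The RNA was total RNA of wild-type Arabidopsis thaliana, ecotype Columbia 0, a laboratory strain of thale cress. The 6 cold samples came from plants kept for 24 h at 4 °C in medium light, a treatment the labels call photoinhibitory. The 6 recovery samples came from plants that had the same 24 h at 4 °C and then 24 h at 20 °C in medium light. All 12 samples thus share the cold treatment, and no untreated plants were analysed here. The labels name no organ and do not say whether samples came from separate plants, so the spread behind each p-value is that of these samples and may be technical.

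Photosystem II is the complex that splits water in the thylakoid membrane, and its D1 subunit is damaged by light and replaced in a repair cycle. Photoinhibition sets in where damage outruns this repair, and cold slows the repair. PSB27 is a protein of the thylakoid lumen that associates with photosystem II during its assembly and repair, and LPA19 is a related lumenal protein that assists the maturation of D1. New D1 carries an extension at its carboxyl end that a lumenal peptidase removes before the manganese cluster can be built; in Arabidopsis the enzyme best known for this is CTPA2, a relative of AT5G46390. The rubredoxin is a membrane-anchored iron protein needed for photosystem II to accumulate, as shown in algae, cyanobacteria and Arabidopsis.

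The deposited values are linear signals of at most 100; the sources used here do not state how they were made. The median signal of a sample was 0.276 to 0.315 in cold and 0.0971 to 0.128 in recovery, and probes listed at 0 made up 5.26% to 6.57% of cold and 11.3% to 16.4% of recovery samples. A change is therefore given on the log2(signal + 0.0415) scale after quantile normalization, which gives all samples the same distribution, so that it is relative to the other probes. Consecutive samples (1 with 2, 3 with 4, 5 with 6) deviated together in cold and less so in recovery. They were averaged as pairs in both groups, so n is 3 per group in means and tests. Recovery was compared with cold by limma with p-values adjusted over the whole array (Benjamini-Hochberg), and a gene passed at an adjusted p under 0.05. By that rule 40.7% of all probes passed, 21.4% higher and 19.3% lower in recovery. The few arrays limit precision.

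The labels set plants recovered at 20 °C against plants at the end of the cold treatment, and the question here is how transcripts of assembly and repair factors differ between them. The 4 members divided evenly. PSB27 fell by 1.89 ± 0.40 in recovery on the log2 scale, and AT5G46390 fell by 1.12 ± 0.20 (SE, 3 averaged samples per group). LPA19 and AT1G54500 rose relative to the other probes, by 0.63 ± 0.18 and 0.46 ± 0.16, but their deposited signals were lower in recovery. All 4 passed, 2 in each direction, in an array where 40.7% of probes passed, and they were chosen with earlier results known, so this count shows nothing particular to them. In RNA of whole samples, fewer cells of a type and less RNA per cell cannot be told apart.

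**Figure D1:**
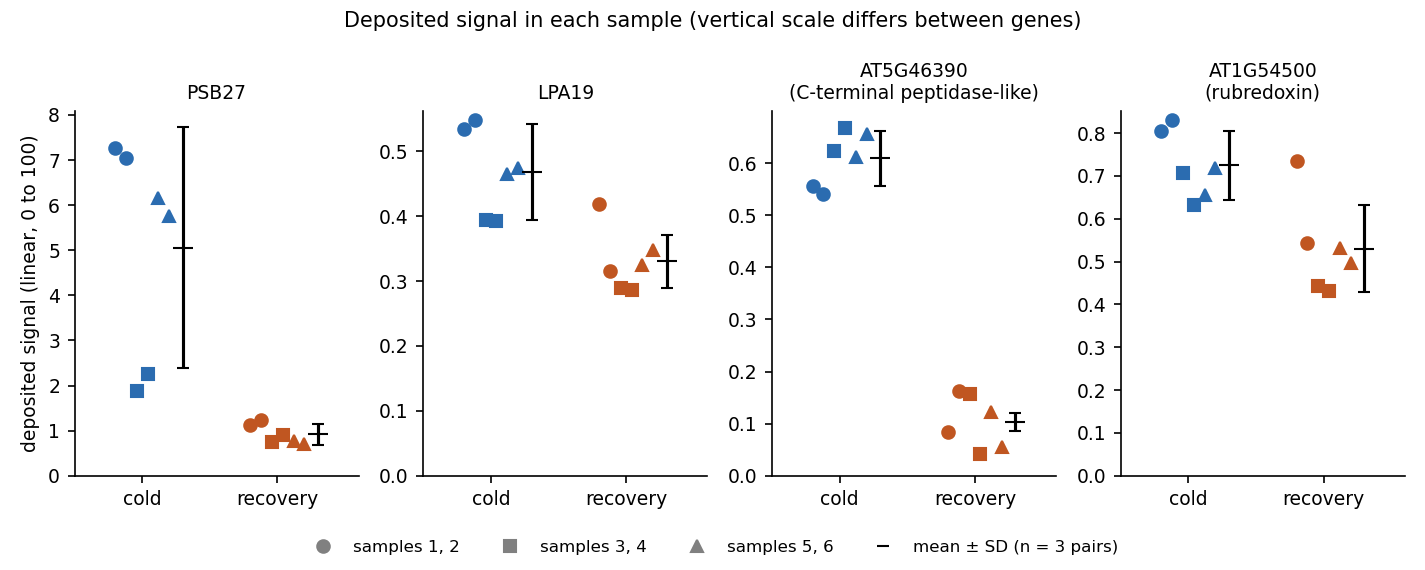
Deposited signal (vertical axis, linear, starting at 0, a separate scale for each gene) of the 4 members in the 6 cold and 6 recovery samples; marker shape gives the pair, and the black bar is the mean ± SD of 3 averaged pairs. PSB27 and AT5G46390 are lower in all 6 recovery samples than in any cold sample, as are 49.2% of all probes. LPA19 and AT1G54500 overlap between the groups.

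PSB27, the lumenal assembly factor, was the most variable of the 4 members in cold. Its deposited signal in cold samples 1 to 6 was 7.26, 7.06, 1.87, 2.25, 6.16 and 5.75. In recovery samples 1 to 6 it was 1.12, 1.23, 0.750, 0.909, 0.778 and 0.714. Every recovery signal was below every cold signal, as for 49.2% of all probes as deposited, and cold samples 3 and 4 stood well below the other 4 cold samples. The mean went from 5.06 ± 2.67 in cold to 0.918 ± 0.228 in recovery (SD, n = 3). After quantile normalization PSB27 was 3.70-fold higher in cold than in recovery (adjusted p = 0.00396), and its change ranked 22 from the lowest among the 690 probes with a known locus. The size of the fall depended on how samples were scaled. It was -2.25 as deposited, where the median probe stood at -0.86. Samples centred on their medians gave -1.08 (adjusted p = 0.0215). Bringing all samples to the same median signal first and adding the pseudocount afterwards gave -0.84, which missed the threshold (adjusted p = 0.191).

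The low cold samples 3 and 4 bear on this value. The averaged normalized log2 values of PSB27 in the 3 cold pairs were 2.85, 0.91 and 2.57, and in the 3 recovery pairs 0.47, 0.15 and 0.040. The samples of a cold pair differed by at most 0.33, while the pairs spanned 1.94. The mean of cold samples 3 and 4 minus that of the other 2 cold pairs was -1.80, the lowest such value of all 3439 probes; PSB27 was looked up for this after its values had been seen. The same difference was -0.33 for LPA19, 0.20 for AT5G46390 and -0.16 for AT1G54500; for LPA19 it is large beside the 0.033 by which the samples of a cold pair differed at most. Without cold samples 3 and 4 the change of PSB27 was -2.49, and without cold samples 1 and 2 it was -1.52, with an adjusted p of at most 0.0449 when any 1 pair was left out.

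AT5G46390, the peptidase-like member, was also lower in recovery under all 5 scalings. Its cold signals ran from 0.541 to 0.668 with a median of 0.617. Its recovery signals were 0.0840, 0.163, 0.156, 0.0409, 0.122 and 0.0559 in samples 1 to 6. The 2 groups did not overlap, but 49.2% of all probes likewise had every recovery signal below every cold signal. The 6 cold signals lay close together. The mean went from 0.609 ± 0.0526 to 0.104 ± 0.0177 (SD, n = 3), a 5.88-fold lower signal, beside 5.51-fold for PSB27. The median signal of a sample was lower too, with a mean of 0.295 in cold and 0.108 in recovery. After quantile normalization the gene was 2.18-fold higher in cold (adjusted p = 0.00146). Its change was the steadiest of the 4 between scalings that equalize the samples, -1.05 to -1.12. The change was -2.24 as deposited, and -1.23 and -0.97 with the pseudocount halved and doubled, so its size is less settled than its direction. It passed the test under all 18 alternatives that were run.

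The recovery samples of AT5G46390 differed more within pairs than between them. The 2 samples of a recovery pair differed by up to 1.21 in normalized log2 value, while the 3 pair means spanned 0.15. Samples 1, 4 and 6 were the lower of their pairs, at 0.0840, 0.0409 and 0.0559, beside a pseudocount of 0.0415. With all 12 samples in the fit and the pair as a random block, the SE was 0.32 in place of 0.20 and the adjusted p was 0.0104.

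LPA19, the relative of PSB27, was lower in recovery as deposited and higher after the samples were scaled. Its cold signals ran from 0.392 to 0.548 with a median of 0.470, and its recovery signals from 0.286 to 0.419 with a median of 0.320. The groups overlapped, because recovery sample 1 exceeded cold samples 3 and 4. Its mean signal of 0.468 ± 0.0741 in cold compared with 0.330 ± 0.0403 in recovery (SD, n = 3). The median probe was lower still, and after quantile normalization LPA19 was 1.55-fold higher in recovery (adjusted p = 0.0181). Its direction turned with the scaling: as deposited the change was -0.45 (adjusted p = 0.0475), which still lay 0.41 above the median probe. Leaving out cold samples 3 and 4 (0.52, adjusted p = 0.0647) or recovery samples 5 and 6 (0.60, adjusted p = 0.0519) lost the call.

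AT1G54500, the rubredoxin, was likewise lower in recovery as deposited and higher after scaling. Its cold signals ran from 0.632 to 0.830 with a median of 0.713, and its recovery signals from 0.431 to 0.735 with a median of 0.513. The groups overlapped through recovery sample 1, which was above 4 of the 6 cold samples. Its mean signal of 0.725 ± 0.0805 in cold compared with 0.530 ± 0.102 in recovery (SD, n = 3). After quantile normalization it was 1.37-fold higher in recovery, with an adjusted p of 0.0455 that was just under the threshold. As deposited the direction turned (-0.44, adjusted p = 0.0538), with cyclic loess it was 0.28 (adjusted p = 0.177), and 5 of the 6 ways of leaving out a pair lost the call.

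**Figure D2:**
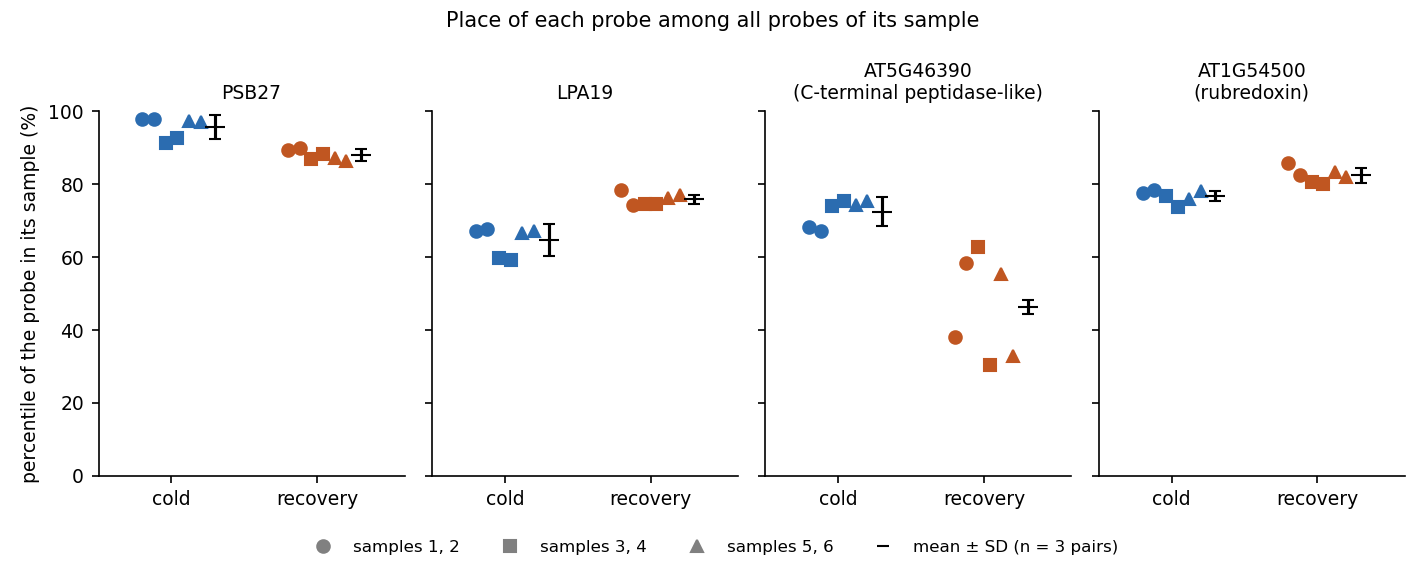
Percentile of each member's probe among all 3439 probes of its sample (vertical axis, 0 to 100%) in cold and recovery; marker shape gives the pair, and the black bar is the mean ± SD of 3 averaged pairs. PSB27 and AT5G46390 hold lower places in all 6 recovery samples than in any cold sample, as do 15.9% of all probes. LPA19 and AT1G54500 hold higher ones, as do 19.0% of all probes.

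The place of a probe within its own sample does not depend on a factor or a curve that preserves the order of signals. PSB27 stood at the 91.3 to 97.9 percentile of its sample in cold (median 97.3) and at 86.3 to 90.1 in recovery (median 87.8), so it remained among the brighter probes. AT5G46390 went from 67.3 to 75.5 in cold (median 74.1) down to 30.4 to 62.9 in recovery (median 46.7). LPA19 went from 59.3 to 67.6 (median 66.9) up to 74.3 to 78.5 (median 75.5). AT1G54500 went from 73.9 to 78.6 (median 77.3) up to 80.1 to 85.8 (median 82.4). In each of the 4 genes the 6 recovery places lay on 1 side of the 6 cold places. Over all probes, 15.9% had every recovery place below every cold place and 19.0% above, 34.9% in all. The exact two-sided permutation p of each normalized value was 0.1 over 3 and 3 averaged samples, the smallest that this design allows, and 0.00216 over 6 and 6 samples taken as independent, also the smallest possible.

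**Figure D3:**
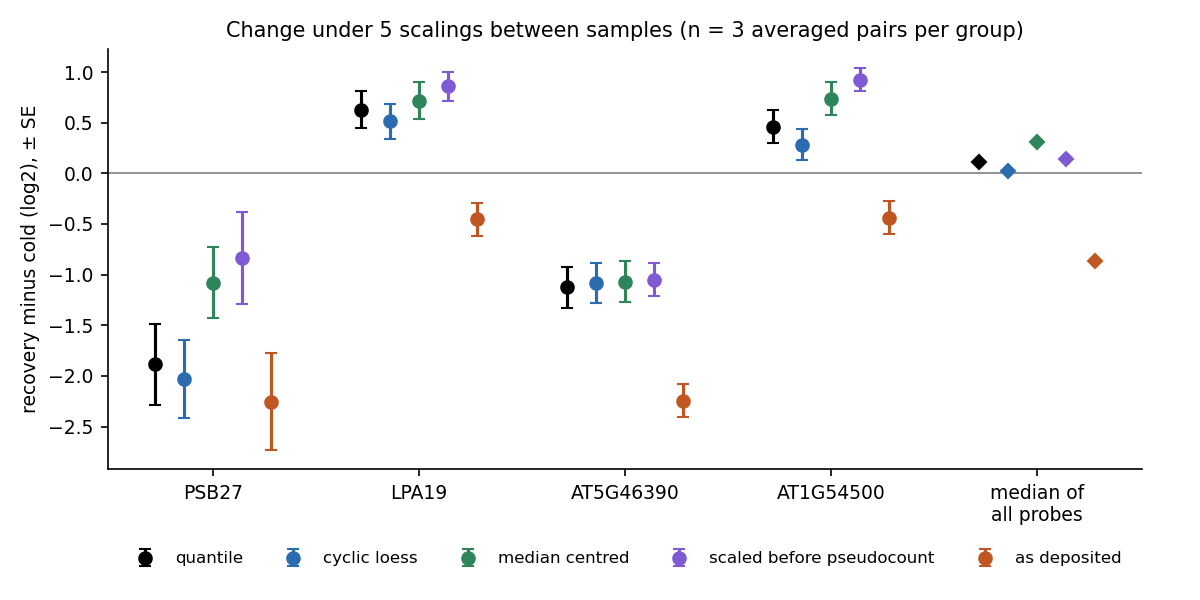
Recovery minus cold (vertical axis, log2, ± SE, n = 3 averaged pairs per group) of the 4 members and the median of all probes (diamonds) under 5 scalings, by colour. PSB27 and AT5G46390 are below 0 under all 5, whereas LPA19 and AT1G54500 are above 0 except as deposited, where the median probe stands at -0.86.

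Ratios between 2 members within a sample were used to ask whether the changes differ, because a factor between samples cancels in them except through the pseudocount. A difference between samples that varies with signal level does not cancel. The 6 ratios of the 4 genes were taken on the values as deposited with the pseudocount added. The log2 ratio of PSB27 to LPA19 changed by -1.80 ± 0.47 from cold to recovery, and that of PSB27 to AT1G54500 by -1.82 ± 0.51 (SE over 3 averaged samples in each group). The ratio of AT5G46390 to AT1G54500 changed by -1.81 ± 0.17, and that of LPA19 to AT5G46390 by 1.79 ± 0.20. These 4 ratios share their genes and are linked by arithmetic with the other 2, so they are not 4 separate results. In each of the 4 ratios no recovery sample overlapped with a cold sample. A ratio to PSB27 was higher in all recovery than in all cold samples for 32.1% of all probes, and a ratio to AT5G46390 for 54.4%. The exact permutation p was 0.1 for each of the 4 (0.15 adjusted over 6 ratios), the smallest that 3 against 3 allows. Over 6 and 6 samples taken as independent it was 0.00216 (0.00325 adjusted). With the samples brought to the same median signal first, an alternative chosen after seeing the data, the 4 changes were -1.69, -1.76, -1.97 and 1.91 in the order given.

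The other 2 ratios were one within the genes that fell and one within those that rose after scaling. PSB27 over AT5G46390 changed by -0.011 ± 0.61 (exact permutation p = 1), with an SD of 1.05 in cold, so that its direction is not determined. It ran from -0.60 to 0.40 when any 1 pair was left out, and its sign turned to 0.17 with the pseudocount halved and to 0.21 with samples brought to the same median first. Scaling that varies with signal level set these 2 genes apart. PSB27 and AT5G46390 changed by -1.89 and -1.12 after quantile normalization, and by -2.03 and -1.08 with cyclic loess. LPA19 over AT1G54500 changed by -0.018 ± 0.086 (exact permutation p = 0.7), and stayed between -0.076 and 0.044 when any 1 pair was left out. Neither p shows that the genes of a ratio changed alike. Across the 12 samples the normalized values of LPA19 and AT1G54500 correlated at r = 0.92, those of PSB27 and AT5G46390 at 0.64; these points share arrays and the difference between the groups.

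**Figure D4:**
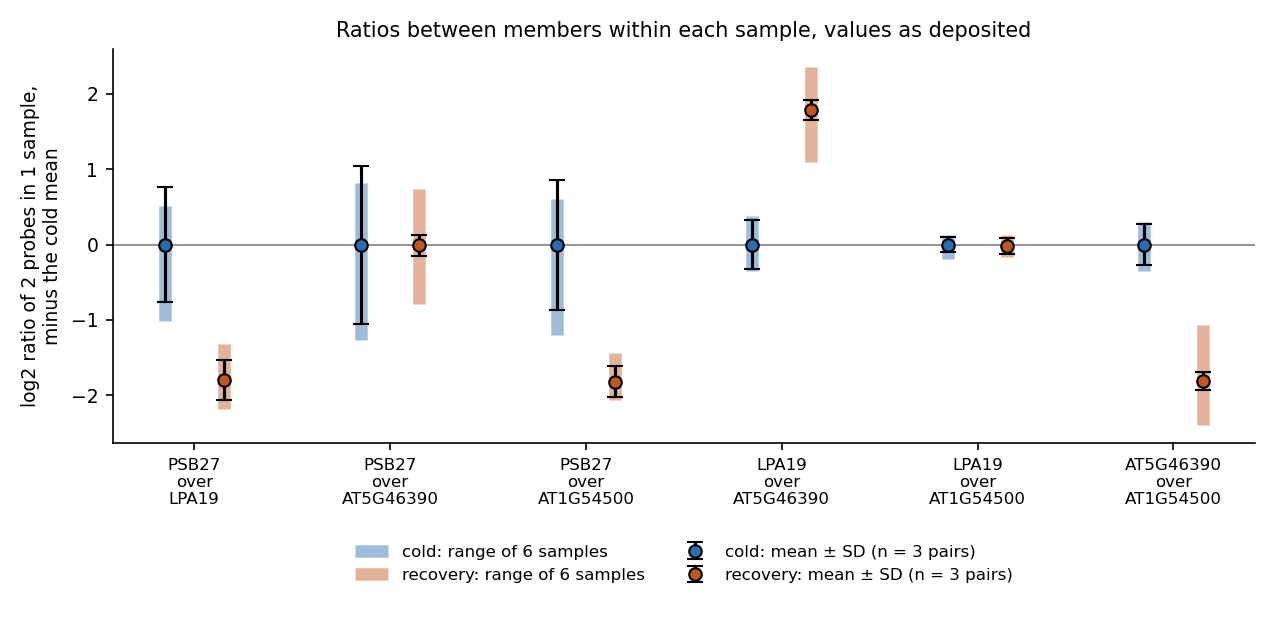
The log2 ratio of 2 members in the same sample, minus the mean ratio in cold (vertical axis), for the 6 combinations; points are means ± SD of 3 averaged pairs and thick bars the range of 6 samples. The 4 ratios between a gene that fell and one that rose after scaling move away from 0 in recovery, and the means of the other 2 stay near it, with a wide spread for PSB27 over AT5G46390.

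The members were also set against structural subunits on the same array. Of 12 listed photosystem II subunits, 2 had a probe of their own: PSBY, a small subunit, whose deposited signal went from 1.38 ± 0.177 to 2.86 ± 0.381 (SD, n = 3), and PSBW, also small, which went from 46.1 ± 5.38 to 43.1 ± 3.92. After quantile normalization PSBY rose by 1.44 ± 0.14 (adjusted p = 2.00e-05). PSBW, like PSB27 and AT5G46390, fell, with a change of -0.56 ± 0.19 (adjusted p = 0.0377), but it turned to 1.08 with samples centred on their medians and to 1.36 with samples brought to the same median first. The log2 ratio to PSBY changed by -3.28 for PSB27, -3.27 for AT5G46390, -1.48 for LPA19 and -1.46 for AT1G54500. The ratio to PSBW changed by -2.16, -2.15, -0.36 and -0.34 in the same order. Against PSAN, a lumenal photosystem I subunit, and LHCB1.5, an antenna protein, the changes of the 4 members ran from -4.48 to -2.22. The exact permutation p of each of these 16 ratios was 0.1, the smallest possible; over 6 and 6 samples taken as independent, the adjusted p over 16 ratios was at most 0.0130. Every recovery ratio was below every cold ratio for 81.6% of all probes against PSBY, 42.2% against PSBW, 97.3% against PSAN and 95.9% against LHCB1.5, so a lower ratio of the members to these subunits is read as nothing particular to them. These 16 ratios were added after the changes had been seen, and PSAN and LHCB1.5 were taken knowing that they rose.

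Other genes of the repair pathway were mostly out of reach. Of 34 listed assembly and repair factors only the 4 members had a probe of their own. Of these, 2 were higher and 2 lower, in an array where 21.4% of probes passed higher and 19.3% lower. Their median change was -0.33, beside 0.11 over all probes. That median lies between 2 falls and 2 rises and describes none of the 4. Of 13 listed plastid proteases 2 were measured, and 1 rose and 1 did not pass. CLPS1, an adaptor of the Clp protease, rose by 1.33 ± 0.18 (adjusted p = 2.32e-04), and SPPA, a thylakoid protease, changed by 0.12 ± 0.25 (adjusted p = 0.704; as deposited -1.04, adjusted p = 0.00220). The FTSH and DEG proteases that degrade damaged D1 were listed but had no probe of their own. The 7 root markers listed as a check on other tissue had no probe of their own.

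The genes most like each member were sought among 502 other probes with a known locus, by Pearson's r of normalized log2 values over the 12 samples. Probes with a mean signal in the lowest 25% of all probes were left out of this search. PSB27 was closest to AT4G21770 (r = 0.98), AT5G63490 (0.95) and AT4G31210 (0.95). All 3 were also lowest in cold samples 3 and 4: the averaged log2 values in the 3 cold pairs were 0.29, -1.45 and 0.038 for AT4G21770, -0.55, -1.57 and -0.54 for AT5G63490, and -1.72, -3.06 and -2.31 for AT4G31210. LPA19 was closest to AT2G32040 (0.98), AT2G25870 (0.97) and AT4G27390 (0.96), and these 3 were lowest in cold samples 3 and 4 as well. AT5G46390 was closest to AT2G32470 (0.89), AT3G02690 (0.88) and AT3G20490 (0.88). AT1G54500 was closest to LPA19 itself, followed by AT2G32040 (0.91) and AT1G04420 (0.90). These r describe shared differences between the groups as much as any shared course within them. The genes were picked by r over these same 12 samples, so a low value shared in cold samples 3 and 4 follows in part from that choice. It is no separate support for the low values of PSB27 or LPA19 there.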

How the data were processed

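The authors deposited one table of signals per probe for 12 expression arrays; per the values, the signal runs from 0 to 100, and its background correction and scaling are not given in the sources used here. Probes were named through the platform annotation and a RefSeq gene table (TAIR10.1, used for names only). The files name no genome build, so no coordinates are given. Signals were taken as log2(signal + 0.0415), where the pseudocount is the 10th percentile of positive signals, quantile normalized, averaged over consecutive samples (1 with 2, 3 with 4, 5 with 6), and fitted with limma 3.58.1 (lmFit, eBayes with trend; R 4.3.3). The samples of a pair correlated in their deviations from the group mean at 0.34 to 0.50 in cold, but at -0.033 to 0.063 in recovery. Deviations of unrelated samples from their shared mean correlate below 0 on average. The recovery values therefore do not show that pairs are absent there, nor do they establish them. Averaging is thus not an established choice. It was not the cautious one for AT5G46390, whose SE was 0.20 averaged and 0.32 with the pair as a random block. For PSB27, LPA19 and AT1G54500 the averaged SE was the larger. Ratios between genes were tested by exact two-sided permutation tests. On simulated data the fit was checked before use, with independent noise and a uniform shift between the groups. That simulation modelled no pairs, no values at 0 and no difference that varies with signal level, so it does not bear on these. The members, the 5 gene lists (88 entries) and the tests were chosen with earlier results of these data known. The text names the 4 members, list genes with a probe of their own, and the 3 most similar genes for each member. The labels give no batch or date; batch and group cannot be told apart where they coincide. Alternatives covered scaling, pseudocount, dim probes, values at 0, the variance model, blocking by replicate number, how pairs were handled, and leaving out each pair. Figures used matplotlib 3.10.9 (Python 3.11.15).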

Additional observations from a re-analysis of the deposited data

Results flagged for a closer look

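Among the 20 groups of 6 samples examined (10 genes in 2 conditions), 1 held a sample far from the others, which is the number that chance gives at 1 in 20. It was no member: PSAN in cold sample 1 had a normalized log2 value of -0.39, and the nearest of the other 5 cold samples stood at 0.077. No sample of the 4 members stood apart in this way, since the low cold values of PSB27 came as 2 samples together.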

How the results depend on the processing

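PSB27 and AT5G46390 kept a negative change under all 18 alternatives, and AT5G46390 also kept its call; PSB27 missed the threshold with samples brought to the same median signal first, the pseudocount being added afterwards (-0.84). As deposited, LPA19 (-0.45) and AT1G54500 (-0.44) turned negative, and 2216 probes passed in place of 1399 (192 higher, 2024 lower); the median of all probes was then -0.86, against 0.11 after quantile normalization and 0.31 centred on medians. The share of calls that were higher was 52.5%, but 8.66% as deposited, 69.8% after centring on medians and 63.2% with the scaling done first. With 0 as missing, LPA19 (0.50) and AT1G54500 (0.32) missed the threshold, as did AT1G54500 with cyclic loess (0.28) and without an intensity trend (0.46). The cause of these losses was not tested. With any 1 pair left out, changes ran from -2.49 to -1.52 for PSB27, 0.52 to 0.69 for LPA19, -1.26 to -1.05 for AT5G46390 and 0.37 to 0.55 for AT1G54500, and 1084 to 1355 probes passed, as did 6 to 8 listed genes in place of 9. Ratio changes then ran from -2.24 to -1.56 (PSB27 over LPA19), -0.60 to 0.40 (PSB27 over AT5G46390), -2.32 to -1.56 (PSB27 over AT1G54500), 1.64 to 1.96 (LPA19 over AT5G46390), -0.076 to 0.044 (LPA19 over AT1G54500) and -1.96 to -1.71 (AT5G46390 over AT1G54500). The small ratio of PSB27 over AT5G46390 turned to 0.17 with the pseudocount halved and to 0.21 with samples brought to the same median first. Over 12 samples taken as independent, which the labels do not state, the ratios of -1.80, -1.82, 1.79 and -1.81 passed the exact test, which 3 against 3 cannot. The replicate number as a block paired nothing across groups (correlations of 0.056, 0.12 and -0.0050) and gave 1381 probes, with adjusted p of 0.00128 for PSB27, 0.0216 for LPA19, 0.00330 for AT5G46390 and 0.0437 for AT1G54500, so it changed none of these 4 calls. Signals near 0 limit what can be measured for AT5G46390 in recovery, where a halved pseudocount gave -1.23 and a doubled one -0.97.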

Other observations

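Besides its own probe, AT5G46390 is listed on a probe shared by 3 genes, the others being AT4G17740 and AT3G57680. That probe cannot be assigned to any of them. Its deposited signal went from 0.208 ± 0.0413 in cold to 0.0672 ± 0.0302 in recovery (SD, n = 3), and its normalized change was -0.089 ± 0.28 (SE; limma adjusted p = 0.818), against -1.12 for the probe of AT5G46390 alone. It stood at a median percentile of 37.9 in cold and 31.9 in recovery, and the groups overlapped in percentile. Its deposited signals did not overlap, with a cold minimum of 0.148 and a recovery maximum of 0.143. Of all probes, 49.2% likewise had every recovery signal below every cold signal. A probe shared by AT4G17740 and AT3G57680 only was dimmer still, at 0.0492 ± 0.0330 and 0.0277 ± 0.0246, was listed at 0 in 1 cold and 2 recovery samples, and has no usable fold.

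AT2G25870, named as similar to LPA19, is measured by 2 probes that disagree: the one that correlated with LPA19 at 0.97 over 12 samples was higher in recovery (limma adjusted p = 0.00493), and the other changed by -0.42 on the normalized log2 scale.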
